A study of Sus scrofa with 8 samples.

Results

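The genes described here are immediate early genes: the nuclear receptors NR4A2 and NR4A3, the stress-induced factor ATF3, the AP-1 subunits FOS and JUN, the zinc finger factor EGR1 and the small nuclear protein IER2. The list held 10 gene names, and a probe set was taken where the platform annotation gave it exactly 1 gene symbol and that symbol was on the list. This found 7 genes with 10 probe sets, of 6765 genes with such a probe set in all. For NR4A1, FOSB and JUNB no probe set met the rule, and these genes were not analysed here. The members were selected on their breed differences and their log2 signal on these 8 arrays, so their levels, breed differences and likeness are given as a description and carry no test of their own.

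Immediate early genes are transcribed within minutes of a stimulus, without new protein synthesis, and their short-lived transcripts then decay. Growth factors reach them mainly through MAP kinases and serum response factor, and hormones that raise cyclic AMP reach them through CREB. FOS and JUN pair to form the AP-1 transcription factor, ATF3 is a bZIP protein that can also pair with JUN, and the NR4A receptors act without a known hormone ligand. In mouse adipose tissue NR4A genes are known to respond to beta-adrenergic stimulation, and in many tissues FOS, EGR1 and ATF3 respond to handling and dissection.

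RNA came from backfat, the subcutaneous adipose tissue along the back, taken at the middle of the animal from KNP and YS pigs raised under identical conditions. The 4 KNP samples came from pigs of 7 months and the 4 YS samples from pigs of 6 months, so breed and age cannot be told apart. One label writes Yorkshire for YS, and no label expands KNP. No genetic change or treatment is named for either group, sex is not given, and nothing says whether each sample is a separate animal, so SDs and SEs measure the spread between these samples, which may be technical.

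Each sample was hybridised to 1 Affymetrix GeneChip Porcine Genome Array, and the number of arrays limits the precision of every value. Values are log2(signal + 16), and a difference is a difference of such values, which understates the change of dim probe sets. Of 10 adipocyte marker genes tested, 9 were above the no-target level on every array; that level is the 95th percentile, on each array, of 23 control sequences foreign to the pig. The arrays differed in the controls for RNA quality. The 3' minus 5' signal difference of the housekeeping controls, which grows as RNA is shortened, was 8.54 on KNP replicate 1, 5.88 on KNP replicate 2 and 4.40 on YS replicate 4, and lay between 2.12 and 3.17 on the other 5 arrays. Skeletal muscle markers stood apart on KNP replicate 2, where the median of the 8 genes tested was 5.89 above the gene means, against -1.60 to -0.20 on the other 7 arrays. The summed signal of these 8 muscle genes ranged from 268.6 to 68214 in KNP and from 425.7 to 758.05 in YS, and none of the 8 was above the no-target level on every array.

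NR4A3, also called NOR-1, had the largest breed difference of the 7 genes. On its brighter probe set the log2 signal of KNP replicates 1 to 4 was 8.39, 10.73, 10.34 and 9.93, and that of YS replicates 1 to 4 was 7.15, 7.70, 7.85 and 8.37. Every KNP array lay above every YS array, but the lowest KNP value, on replicate 1, was only just above the highest YS value, on replicate 4. The gap between them was 0.01, and it was 0.26 after quantile normalization and 0.13 after median centring. The mean was 9.85 ± 1.03 in KNP and 7.77 ± 0.50 in YS (n = 4, SD), a difference of 2.08 ± 0.51 (SE) or 4.21-fold on this scale. The highest value was on KNP replicate 2, the array with high muscle markers. The difference was 1.78 without that array and 2.56 without KNP replicate 1.

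The other NR4A3 probe set was dim and did not follow the first. It read 7.87, 5.10, 7.16 and 6.10 on KNP replicates 1 to 4, and 4.58, 4.96, 5.13 and 7.47 on YS replicates 1 to 4. It exceeded the no-target level on only 3 arrays, 2 of KNP and 1 of YS, was highest on KNP replicate 1, and was left out of the fit by the filter on low values. Its mean was 6.56 ± 1.21 in KNP and 5.54 ± 1.31 in YS (n = 4, SD), with overlapping breeds. Over the 8 arrays its Pearson correlation with the brighter probe set was 0.25 and its Spearman correlation 0.45.

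NR4A2, also called NURR1, varied more between KNP arrays than between breeds. Its log2 signal was 7.35, 10.99, 10.08 and 10.45 on KNP replicates 1 to 4, and 8.91, 9.84, 8.33 and 9.79 on YS replicates 1 to 4. KNP replicate 1 was the lowest of the 8 arrays and the other 3 KNP arrays were the highest, so the breeds overlapped only because of that array. The KNP values spanned 12.4-fold and the YS values 2.83-fold. The means were 9.72 ± 1.62 and 9.22 ± 0.73 (n = 4, SD), and their difference of 0.50 ± 0.75 (SE) became 1.29 without KNP replicate 1 and 0.08 without KNP replicate 2.

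ATF3, a repressor or activator induced by many kinds of stress, was next to NR4A3 in the size of its difference relative to its error. It read 9.43, 10.39, 10.25 and 10.87 on KNP replicates 1 to 4, and 8.93, 9.61, 9.25 and 9.84 on YS replicates 1 to 4. Of the KNP arrays, 3 were above all YS arrays, and replicate 1 lay among the YS values. The means were 10.23 ± 0.60 and 9.41 ± 0.40 (n = 4, SD), a difference of 0.83 ± 0.36 (SE) or 1.78-fold, which was 1.10 without KNP replicate 1.

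**Figure D1:**
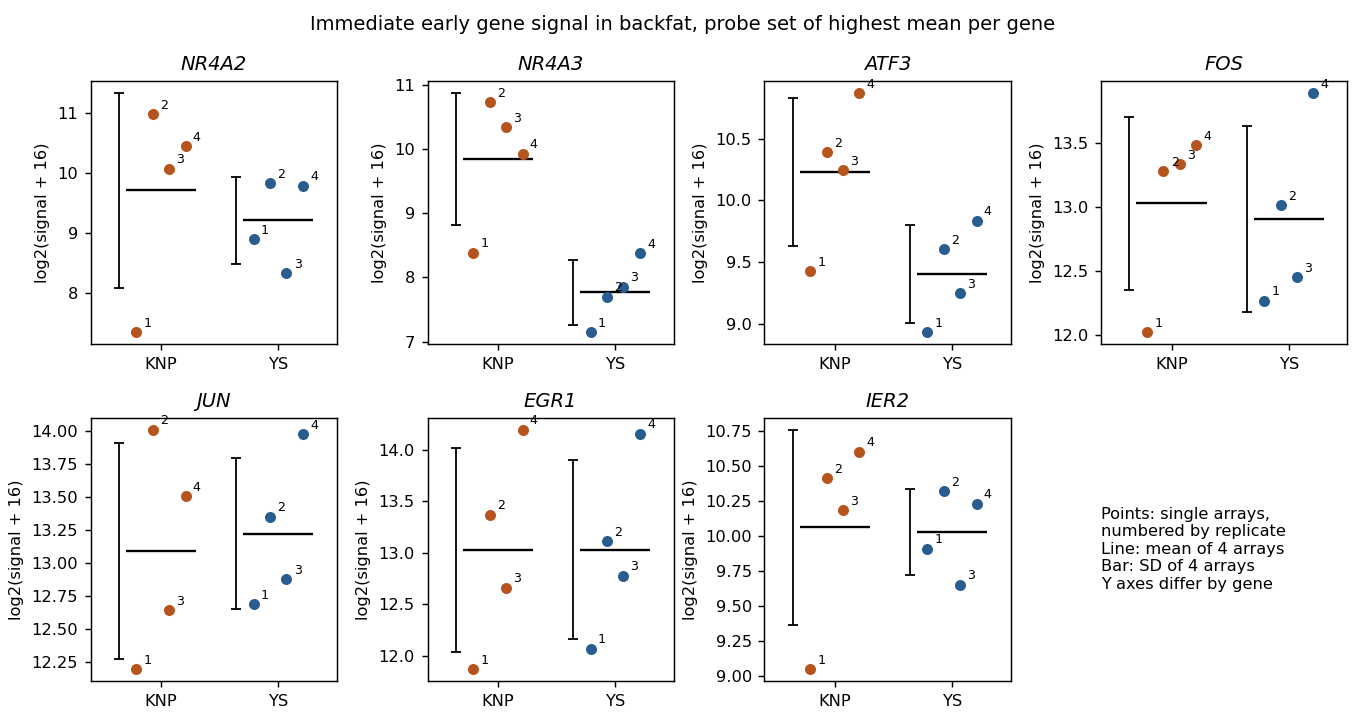
Log2(signal + 16) of 7 immediate early genes on single backfat arrays (points, numbered by replicate) of KNP and YS pigs, with the mean (line) and SD (bar) of 4 arrays per breed; the y axes differ between genes. KNP replicate 1 is the lowest KNP point in every panel, and NR4A3 is the gene whose breeds do not overlap.

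FOS and JUN, the AP-1 subunits, differed between breeds by less than the spread within a breed. FOS read 12.02, 13.28, 13.33 and 13.48 on KNP replicates 1 to 4, and 12.27, 13.01, 12.45 and 13.89 on YS replicates 1 to 4. KNP replicate 1 was the lowest and YS replicate 4 the highest of the 8 arrays, and the breeds overlapped. The difference of the FOS means was 0.12 ± 0.45 (SE). Without the 3 arrays highest in 3'/5' difference, which left KNP replicates 3 and 4 against YS replicates 1 to 3, it was 0.83. FOS was not alone in this: NR4A2 (1.24), EGR1 on its brightest probe set (0.77), IER2 (0.43) and JUN (0.10) were then also higher in KNP. NR4A3 and ATF3 stayed higher in KNP, and the dim EGR1 probe set stayed lower (-0.61). JUN read 12.20, 14.01, 12.64 and 13.51 on KNP replicates 1 to 4, and 12.69, 13.35, 12.88 and 13.97 on YS replicates 1 to 4, again with the lowest value on KNP replicate 1. Its difference was -0.13 ± 0.45 (SE), within the spread of either breed, and it was 0.16 without KNP replicate 1 and -0.44 without KNP replicate 2.

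EGR1, a zinc finger factor induced through serum response factor, had 3 probe sets. The brightest read 11.87, 13.37, 12.66 and 14.19 on KNP replicates 1 to 4, and 12.07, 13.11, 12.78 and 14.15 on YS replicates 1 to 4. Its means were 13.02 ± 0.99 and 13.03 ± 0.87 (n = 4, SD), so the breed means lay close together while single arrays of each breed differed by up to 5.005-fold in KNP and 4.25-fold in YS. Its neighbour in the same probe set family differed by 0.14 ± 0.39 (SE) and correlated with it over the 8 arrays at 0.74. The third was dim, exceeded the no-target level on 2 arrays of KNP and 4 of YS, and correlated with the brightest at 0.16. It was lower in KNP, with means of 6.69 ± 1.57 in KNP and 7.83 ± 0.59 in YS and a difference of -1.13 ± 0.71 (SE). That difference was -0.46 without KNP replicate 1 and -1.64 without KNP replicate 3.

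IER2, a short-lived nuclear protein of the growth factor response, read 9.05, 10.41, 10.19 and 10.60 on KNP replicates 1 to 4. On YS replicates 1 to 4 it read 9.91, 10.32, 9.65 and 10.23. KNP replicate 1 was again the lowest array, and the difference of the means was 0.03 ± 0.37 (SE).

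In limma, fitted to all 17999 probe sets that passed the filter on low values, 0 probe sets passed a Benjamini-Hochberg adjusted p of 0.05, which is 0% of those tested. Of the 10 member probe sets, 9 entered the fit, and 0 passed (adjusted p = 0.9998 for NR4A3 and for each of the others). At an unadjusted p under 0.05 in the same limma fit there were 2 member probe sets, those of NR4A3 (0.00259) and ATF3 (0.0445), where the background was 2.84% of all probe sets. NR4A3 ranked 21 by p among the 17999. The brighter NR4A3 probe set was the only one of the 10 without overlap between breeds, against 1.96% of all probe sets tested. Nothing is read from these counts, since this contrast was used to choose the members. Of the 10 probe sets, 7 had the higher mean in KNP and 3 in YS, where 49.9% of all probe sets tested had the higher mean in KNP. The median difference of the 7 genes was 0.12, against 0.01 over the 6006 genes tested, each represented by its probe set of highest mean.

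With all 8 arrays kept, the breed difference was smaller than the SD within either breed on the brightest probe set of NR4A2, FOS, JUN, EGR1 and IER2. On 6 of the 8 arrays at least 6 of the 7 genes lay on the same side of their own means. KNP replicates 2 and 4 were above the gene's own mean for 7 of 7 genes, and YS replicate 4 for 6 of 7. KNP replicate 1, YS replicate 1 and YS replicate 3 were above it for 0 of 7. The genes were split on KNP replicate 3 and YS replicate 2, each above it for 5 of 7. On KNP replicate 3 NR4A3 was 1.53 above its mean, while JUN was at -0.51 and EGR1 at -0.37; on YS replicate 2 NR4A3 was at -1.10 and ATF3 at -0.21. KNP replicate 1 was the lowest array for 5 genes, and YS replicate 1 for the other 2, NR4A3 and ATF3. The mean of the 7 gene-centred values was -0.997, 0.84, 0.31 and 0.82 on KNP replicates 1 to 4, and -0.77, -0.05, -0.58 and 0.42 on YS replicates 1 to 4. By breed this mean was 0.24 ± 0.86 in KNP and -0.24 ± 0.54 in YS (n = 4, SD), with the KNP arrays spanning the whole YS range. In such bulk RNA, fewer cells of a type and less RNA per cell cannot be told apart.

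**Figure D2:**
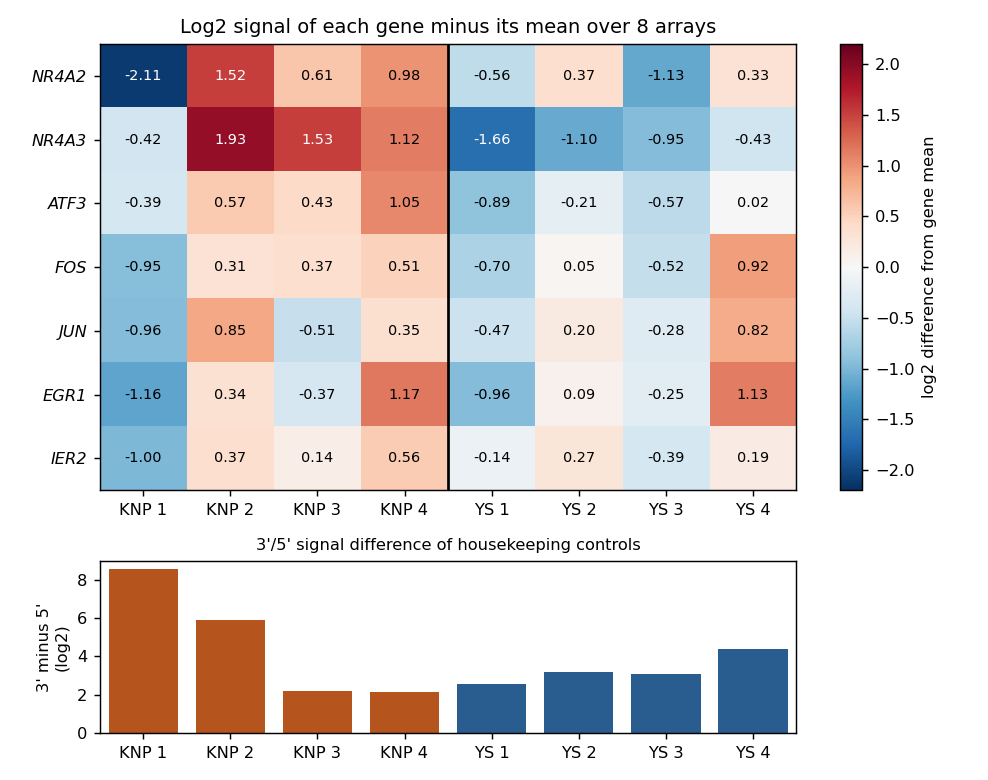
Top, log2 signal of each gene minus its mean over 8 arrays, by array, with KNP left and YS right of the line; bottom, the 3' minus 5' log2 signal difference of the housekeeping controls on the same arrays. KNP replicates 2 and 4 are above the gene mean for 7 of 7 genes, and the pair of arrays highest in 3'/5' difference hold the lowest member mean, on KNP replicate 1, and the highest, on KNP replicate 2.

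The array order of these genes was set beside RNA quality and tissue makeup, whose part in it was not tested. The 3 arrays highest in 3'/5' difference were KNP replicate 1, KNP replicate 2 and YS replicate 4. Their member means were -0.997, 0.84 and 0.42, which were the lowest, the highest and the third highest. KNP replicate 2, the array with high muscle markers, had a member mean of 0.84, and KNP replicate 4, where the muscle marker median was -1.60, had 0.82. The adipocyte marker median was lowest on KNP replicate 1 (-0.66) and YS replicate 4 (-0.58), which had the lowest and the third highest member means. Both arrays are among the 3 highest in 3'/5' difference, so RNA quality and fat cell content cannot be told apart in this median. On KNP replicate 1 the single adipocyte markers went both ways, from -3.12 for ADIPOQ to 1.26 for LEP.

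Over the 8 arrays all 21 pairs of the 7 genes had a positive Pearson correlation, from 0.35 to 0.96 with a mean of 0.71, and the Spearman correlations ran from 0.24 to 0.90. The closest pair was NR4A2 and IER2 (r = 0.96, rho = 0.90), followed by FOS and EGR1 (r = 0.89) and NR4A3 and ATF3 (r = 0.88). The lowest correlations were those of NR4A3 with JUN (r = 0.35), EGR1 (r = 0.39) and IER2 (r = 0.47). The points share tissue, platform and scaling, and these values are a description over 8 arrays with no p.

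With each breed's mean subtracted, the 21 correlations ran from 0.70 to 0.97 with a mean of 0.83. NR4A3 changed the most: its mean correlation with the other 6 genes was 0.55 over the arrays as they are and 0.79 with breed means subtracted. Within KNP every gene was lowest on replicate 1, but the order of the other arrays was not the same for all genes. NR4A3 was higher on YS replicate 3 (7.85) than on YS replicate 2 (7.70), and the other 6 genes were the reverse. Correlations with breed means subtracted and KNP replicate 1 left out are not given here. Leaving out KNP replicate 1 gave 21 positive pairs with a mean of 0.69, and leaving out the 3 arrays highest in 3'/5' difference gave 21 positive pairs with a mean of 0.73, the lowest being 0.13 for NR4A3 and JUN. Without the 2 arrays farthest from the median of the first gene of a pair the correlations ran from 0.36 to 0.95.

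**Figure D3:**
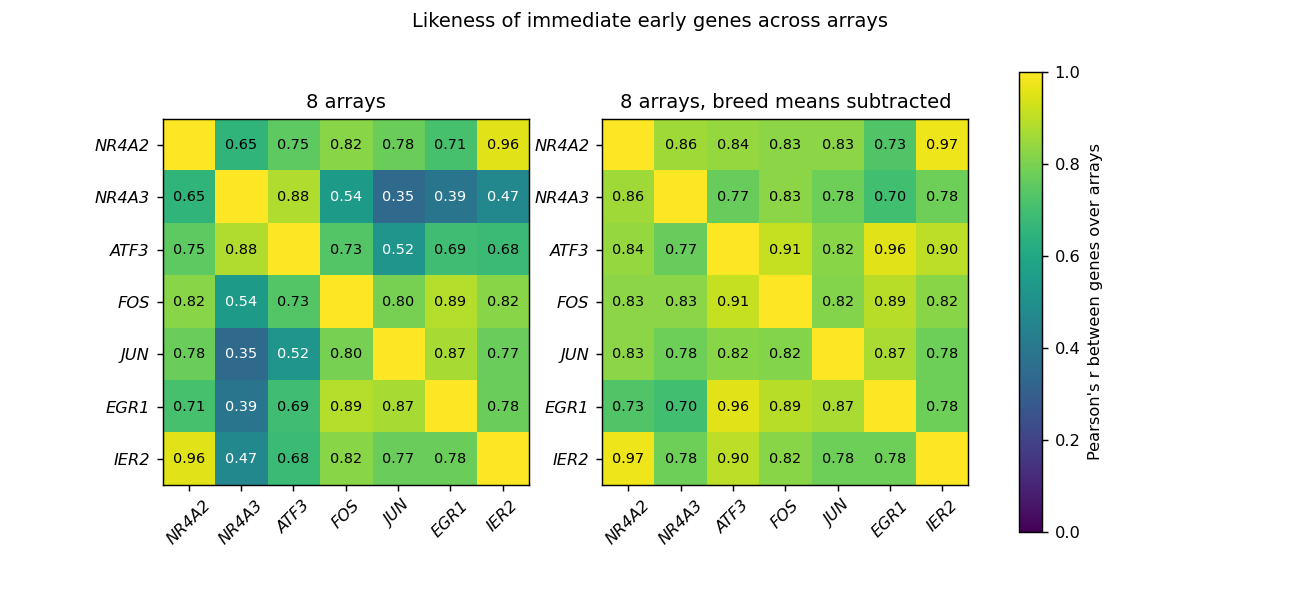
Pearson's r between 7 immediate early genes over 8 arrays (left) and with breed means subtracted (right). All pairs are positive in both panels, and the row of NR4A3 moves from 0.35 to 0.88 on the left to 0.70 to 0.86 on the right.

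Each gene was also set against the mean of the other 6. The correlation was 0.89 for NR4A2, 0.88 for FOS, 0.86 for ATF3, 0.86 for IER2, 0.78 for EGR1, 0.75 for JUN and 0.61 for NR4A3. Of the 7 genes, 6 reached 0.7, and of the 5999 genes that are not members 2.62% reached 0.7 with the mean of all 7. Because the rule asked whether the members rise together, this share is a background and nothing is read from it. For NR4A2, 0.117% of the other genes were as high, and for NR4A3 5.43% were.

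The shared array pattern was then subtracted. Relative to the mean of the other 6 genes on the same array, NR4A3 was at 0.67, 1.26, 1.42 and 0.35 on KNP replicates 1 to 4, and at -1.04, -1.23, -0.43 and -0.999 on YS replicates 1 to 4. All KNP values were above 0 and all YS values below 0, a difference of 1.85 between the means of 0.93 ± 0.50 and -0.93 ± 0.35 (n = 4, SD). For the remaining 6 genes the reference was the mean of the other 5, without NR4A3. ATF3 was then at 0.36 ± 0.39 in KNP and -0.36 ± 0.25 in YS, and its breeds overlapped narrowly, from -0.11 to 0.84 in KNP and from -0.66 to -0.06 in YS. JUN was at -0.21 ± 0.49 in KNP and 0.21 ± 0.10 in YS, and its breeds also overlapped. The breeds overlapped for NR4A2, FOS, EGR1 and IER2 too, with differences between -0.28 and 0.33. The differences of these 6 genes sum to 0 by construction, so higher values for some genes force lower values for others. Each gene was centred on its own mean, so the KNP and YS means mirror each other around 0, also for NR4A3.

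**Figure D4:**
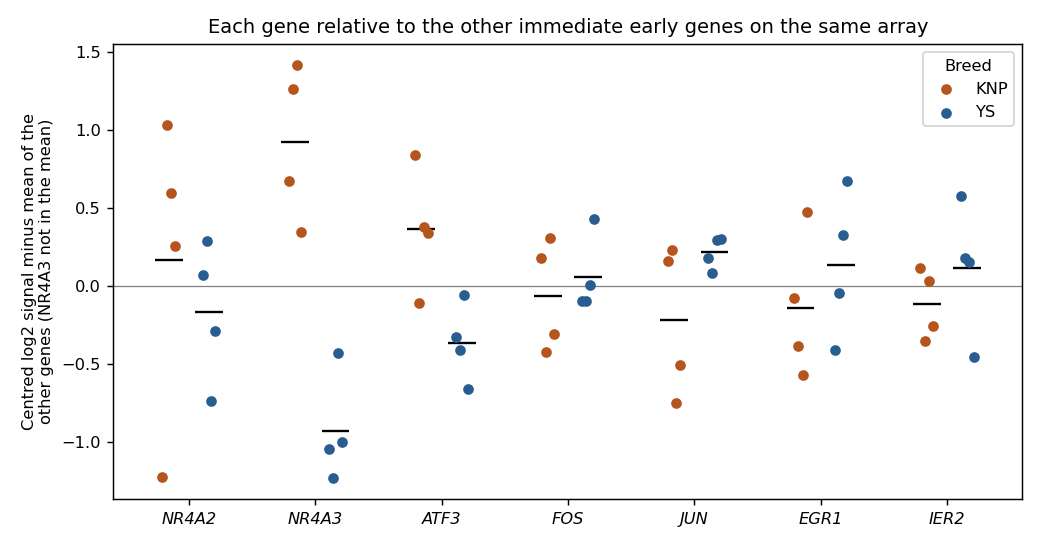
Gene-centred log2 signal of each immediate early gene minus the mean of the other genes on the same array (points, single arrays; line, mean of 4), with NR4A3 kept out of that mean. NR4A3 lies at 0.35 or above on the KNP arrays and at -0.43 or below on the YS arrays, and the other 6 genes overlap between breeds.

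Other immediate early genes were taken from lists that were also drawn up with results of these data known. Of 27 further transcription factors 17 were tested. Of these, 10 had the higher mean in KNP, against 51.8% of all 6006 genes, and 7 in YS. Their median difference was 0.12, against 0.01 over all 6006 genes. In limma 0 passed, and 2 had an unadjusted p under 0.05, against 2.35% of the genes tested. The breeds did not overlap for 2 of the 17, against 2.08% of the genes tested. CREM, whose ICER isoform is a cyclic AMP-induced repressor, read 11.80, 12.06, 11.61 and 11.91 on KNP replicates 1 to 4 and 11.19, 11.37, 11 and 11.18 on YS replicates 1 to 4. All KNP arrays were above all YS arrays on this probe set, the brightest of 4, and the difference was 0.66 ± 0.23 (SE), or 1.58-fold, with an adjusted p of 0.9998 in limma. The other 3 CREM probe sets differed by 0.84, 0.33 and -0.02. BHLHE40, a repressor tied to the clock and to hypoxia, was at 6.05 ± 0.93 in KNP and 7.23 ± 0.13 in YS (n = 4, SD) on its brighter probe set. Every KNP value was under every YS value, and it exceeded the no-target level on 2 arrays of KNP and 3 of YS. Its dimmer probe set was at 5.73 ± 0.79 in KNP and 6.05 ± 0.80 in YS, a difference of -0.32. IRF1, an interferon-induced factor, was at 9.58 ± 0.44 and 10.05 ± 0.41 with overlapping breeds.

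Of 42 immediate early effectors, which include phosphatases, RNA-binding proteins, cytokines and matrix proteins, 24 were tested. Of these, 11 had the higher mean in KNP, against 51.8% of all genes tested, and 13 in YS. Their median difference was -0.04. In limma 0 passed, and 0 had an unadjusted p under 0.05, against 2.35% of the genes tested. The breeds did not overlap for 1 of the 24, against 2.08% of the genes tested: NFKBIA, an inhibitor of NF-kappaB singled out after its values were seen, was at 11.41 ± 0.08 in KNP and 11.72 ± 0.13 in YS (n = 4, SD). CYR61 (CCN1), a matrix protein induced by serum and stretch, was at 11.05 ± 0.82 in KNP and 10.18 ± 0.49 in YS (n = 4, SD). The chemokine CXCL2 was at 10.79 ± 0.44 and 11.27 ± 0.32. RGS2, an inhibitor of Gq signalling, was at 11.20 ± 0.74 and 10.58 ± 0.42 on its brightest probe set, a difference of 0.62, and its dimmer probe sets differed by 0.82 and -0.73. The breeds overlapped for all 3.

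Of 41 upstream kinases, receptors and constitutive factors, 16 were tested. Of these, 8 had the higher mean in KNP, against 51.8% of all genes tested, and 8 in YS. Their median difference was 0.02. In limma 0 passed, and 0 had an unadjusted p under 0.05, against 2.35% of the genes tested. The breeds did not overlap for 0 of the 16, against 2.08% of the genes tested. The ERK-activated kinase RPS6KA3 was at 8.21 ± 0.23 in KNP and 7.41 ± 0.88 in YS (n = 4, SD), and the protein kinase A subunit PRKACB was at 9.10 ± 0.56 and 9.50 ± 0.16. ADRB3, a beta-adrenergic receptor, was at 7.47 ± 0.60 and 7.86 ± 0.38, and exceeded the no-target level on 3 arrays of KNP and 4 of YS. The breeds overlapped for all 3.

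The further lists differed in how far they followed the array pattern of the 7 genes. Of the 24 effectors 23 had a positive correlation with the members' mean over 8 arrays, with a median of 0.44. The median of the effectors' gene-centred values was -0.51, 0.02, 0.28 and 0.27 on KNP replicates 1 to 4. On YS replicates 1 to 4 it was -0.11, 0.18, -0.07 and -0.07, so KNP replicate 1 lay farthest from 0. Of the 17 transcription factors 11 had one, with a median of 0.35, and of the 16 upstream genes 8, with a median of -0.02. Over all genes that are not members 46.9% were positive and the median was -0.03. For markers of other cell types the median was 0.56 over 7 smooth muscle and pericyte genes, 6 of them positive, and 0.42 over 8 endothelial genes, 7 of them positive. It was 0.32 over 8 skeletal muscle genes, 8 of them positive, whose signal stood out on KNP replicate 2 alone, and 0.17 over 10 T and NK cell genes, 7 of them positive. It was 0.02 for 10 adipocyte genes, -0.13 for 4 neutrophil genes and -0.18 for 8 macrophage and myeloid genes. The summed signal of the smooth muscle and pericyte genes was 15365 to 29840 in KNP and 15284 to 19680 in YS, and that of the endothelial genes 11728 to 21996 in KNP and 15433 to 16758 in YS. Of these, 6 of 7 and 7 of 8 genes were above the no-target level on every array, and their part in the members' pattern was not tested. The median gene-centred value of the endothelial genes was lowest on KNP replicate 1, at -0.70. That of the smooth muscle and pericyte genes was -0.15 on KNP replicate 1. It was lowest on YS replicate 4, at -0.33, and highest on KNP replicate 3, at 0.92. Median correlations of the lists without KNP replicate 1 are not given here.

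**Figure D5:**
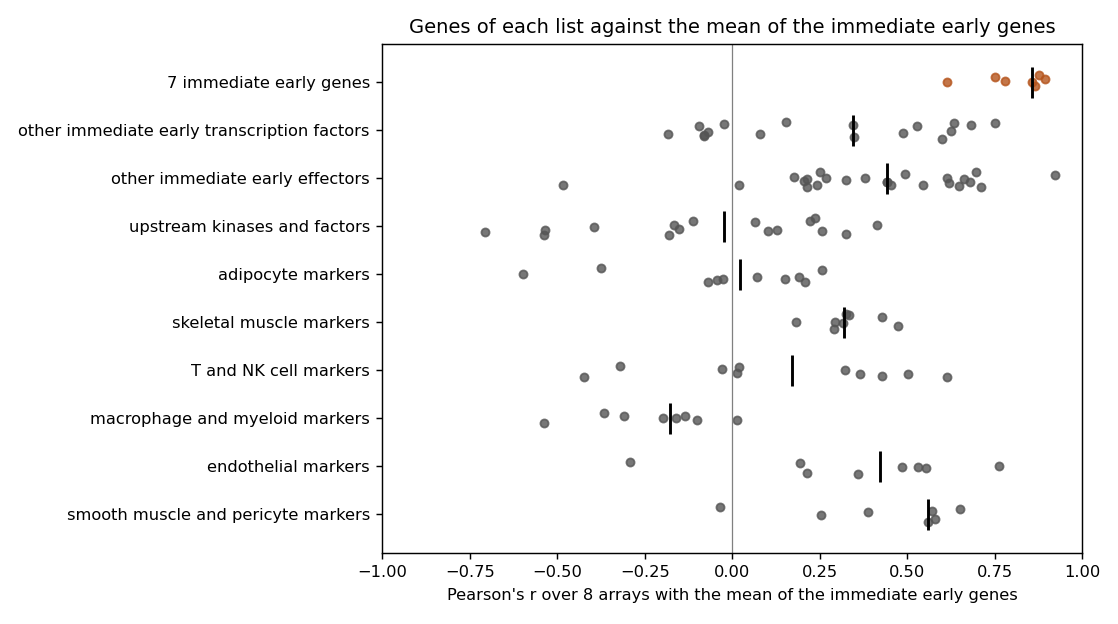
Pearson's r over 8 arrays between each tested gene of a list (points) and the mean of the 7 immediate early genes, with the median of each list (line); for the 7 genes themselves the mean of the other 6 was used. Their median is 0.86, and the medians of the other lists lie between -0.18 and 0.56.

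Among 2508 genes that are not members and had an SD of at least 0.5 over the 8 arrays, the 8 whose log2 signal was most like the members' mean were named. They were SNRK, a kinase related to AMP-activated kinase (r = 0.93, rho = 0.88), RGS2 (r = 0.92, rho = 0.93), ANKRD52, a subunit of protein phosphatase 6 (r = 0.88), and SHMT1, the cytosolic serine hydroxymethyltransferase (r = 0.88). STAT6, the factor activated by interleukin 4 (r = 0.86), the chemokine receptor CXCR6 (r = 0.86), the proteoglycan phosphatase PXYLP1 (r = 0.84) and the RNA lariat debranching enzyme DBR1 (r = 0.84) followed. RGS2, which is itself an immediate early gene, read 10.14, 11.70, 11.24 and 11.72 on KNP replicates 1 to 4 and 10.19, 10.31, 10.69 and 11.12 on YS replicates 1 to 4. SNRK read 7.71, 9.57, 9.01 and 9.60 on KNP replicates 1 to 4 and 7.81, 9.10, 8.41 and 8.70 on YS replicates 1 to 4. Both were lowest on KNP replicate 1 and highest on KNP replicate 4, as were EGR1 and IER2 among the members. Without KNP replicate 1 the correlation was 0.90 for SNRK and 0.90 for RGS2, and over the 8 genes it ran from 0.76 to 0.90. ANKRD52, CXCR6 and DBR1 were not above the no-target level on every array.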

How the data were processed

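Total RNA from 8 backfat samples was labelled with biotin and hybridised to 1-colour Affymetrix arrays, per the labels. The deposited table holds a linear intensity for each of 24123 probe sets on each array, with a trimmed mean of 500 on every array (2% trimmed at each end, read from the values). How probes were summarised is not given in the sources used, and array data carry no counts.

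The authors' scaling was kept. Intensities were transformed to log2(signal + 16), controls (124 probe sets) were removed, and of the other 23999 the 25% of lowest mean were dropped, leaving 17999. Names came from the platform annotation: 10069 probe sets had 1 symbol, 198 several and 13732 none, and all 7 member genes on the array matched RefSeq (Sscrofa11.1) by Entrez identifier. No source used here names a genome build, so positions are not printed.

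Breeds were compared with limma 3.58.1 (R 4.3.3; lmFit and eBayes, two-sided, Benjamini-Hochberg over all probe sets tested). The fitting code was tested on simulated data. Members, lists and alternatives were chosen with earlier results of these data known. Named genes were all members, the 3 of smallest p in each further list of immediate early or upstream genes, and the 8 genes most like the members' mean; marker lists are given as counts and medians. Same-numbered KNP and YS samples did not deviate together (correlations of deviations from -0.19 to 0.13), so numbers were not used as pairs.

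The alternatives changed the filter (none, or 50%), the scaling (median centring, or quantile), the pseudocount (1 or 64), the variance model (trend with robust fitting; weights per array), the design (replicate block; 3'/5' difference as covariate), the arrays (each left out; the 3 highest in 3'/5' difference left out) and, for genes, averaged their probe sets.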

Additional observations from a re-analysis of the deposited data

Results flagged for a closer look

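Of 54 groups of 4 arrays examined, for the member probe sets, their mean and the other named genes, 4 held an array whose gap to its nearest neighbour was a larger share of the group's range than the critical value of 0.829; chance flags about 1 in 20 groups. FOS in KNP was flagged for KNP replicate 1, at 12.02 against 13.28 for the next array, with a gap of 0.862 of the range. CYR61 in YS was flagged for replicate 2, at 10.90 against 10.01 (0.838 of the range). SHMT1 in KNP was flagged for replicate 1, at 10.14 against 11.41 (0.841), and CXCR6 in YS for replicate 1, at 5.54 against 6.56 (0.960). Both flagged KNP groups were flagged for replicate 1, the array with the largest 3'/5' difference, whose part in these values was not tested. SHMT1 was named for its likeness to the members' mean, which includes FOS and was lowest on that array. These flags are therefore not independent.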

How the results depend on the processing

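The count of 0 probe sets past an adjusted p of 0.05 in limma held in all 19 alternatives for all probe sets and for the members, and in all 20 for the other immediate early and upstream genes; the smallest adjusted p over all probe sets ranged from 0.0596 (trend and robust variance) to 1, and among the members from 0.358 (3 arrays highest in 3'/5' difference left out) to 1. At an unadjusted p under 0.05 the 511 probe sets became 1516 without those 3 arrays, 975 with weights per array, 877 with the 3'/5' difference as covariate, 784 without KNP replicate 1 and 884 without YS replicate 4. With the replicate block the count of 0 was the same for each of these results and 509 probe sets had an unadjusted p under 0.05. NR4A3 kept a higher mean in KNP in all 19 alternatives (1.78 to 2.56), as did ATF3 (0.62 to 1.298) and NR4A2 (0.08 to 1.29), while FOS was lower in KNP in 3 of 19, JUN higher in 5, the brightest EGR1 probe set higher in 8 and IER2 lower in 6. The mean of the 21 pairwise correlations, 0.71, ranged from 0.62 (mean of a gene's probe sets) to 0.76 (without YS replicate 4). Signal over background limits the dim probe sets of NR4A3 and EGR1.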
